A study of Saccharomyces cerevisiae with 75 samples.

Results

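The 3 genes described here encode factors that destroy messenger RNA in the yeast cytoplasm: NAM7 (YMR080C, chromosome XIII), which encodes Upf1, XRN1 (YGL173C, chromosome VII) and SKI3 (YPR189W, chromosome XVI). They were chosen by gene symbol from the 982 genes named in the probe table, and each was read by 1 probe. Upf1 is an RNA helicase at the core of nonsense-mediated decay, the pathway that removes transcripts with a premature stop codon and, in yeast, unspliced pre-mRNAs that escape to the cytoplasm. Xrn1 is the cytoplasmic exonuclease that digests RNA from its 5′ end once the cap has been taken off, the route by which most nonsense-mediated decay substrates are finally lost. Ski3 is the scaffold of the Ski complex, in which it holds the helicase Ski2 and the protein Ski8, and this complex feeds RNA to the cytoplasmic exosome for digestion from the 3′ end.

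Saccharomyces cerevisiae total RNA was measured on 2-colour arrays designed to follow splicing, in strains that lack RNA-binding proteins of the SR-like family or lack Upf1. On 2 further arrays the splicing mutant prp2-1 was set against the mutants prp5-1 and prp8-1 after 30 min at 37 °C. Those arrays are described only at the end. Dnpl3 is the deletion of NPL3, Dgbp2 and Dhrb1 are the deletions of GBP2 and HRB1, Dgbp2Dhrb1 is the double deletion, Dupf1 is the deletion of NAM7 under its alias UPF1, and Dnpl3Dupf1 is the double deletion of NPL3 and NAM7. Each array compared 2 strains, mostly a mutant with its matched wild type. Of the 37 RNA extract pairs of deletion strains, 36 were hybridised in both dye orientations. Dnpl3 was compared with wild type in 7 pairs at 30 °C, 6 pairs after 30 min at 37 °C, 2 pairs after 15 min and 1 pair after 45 min at 37 °C, and 1 pair after 30 min at 16 °C. Dgbp2 and Dhrb1 each had 1 pair at 30 °C and 2 pairs after 30 min at 37 °C, and Dgbp2Dhrb1 had 2 pairs at each temperature. Dupf1 was compared with wild type in 1 pair after 15 min and 1 pair after 30 min at 37 °C, and Dnpl3Dupf1 in 1 pair at 30 °C and 1 pair after 15 min at 37 °C. The other pairs set mutants side by side: Dupf1 over Dnpl3, Dnpl3 over Dnpl3Dupf1 and Dnpl3Dupf1 over Dupf1 at 30 °C, Dnpl3 over Dupf1 and Dnpl3Dupf1 over Dnpl3 after 15 min at 37 °C, and Dupf1+Dnpl3 over Dnpl3 after 30 min at 37 °C, with 1 pair each. The labels give the last strain only as Dupf1+Dnpl3. They do not say whether the pairs came from separate cultures, so the p-values measure the spread between extract pairs, which may be technical. Comparisons with 1 direct pair or none had no spread of their own to measure. Their standard errors and p-values rest on the spread pooled over all pairs.

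All values are log2 ratios of the first-named strain over the second, averaged over the spots of a probe and over both dye orientations. A gene was called when limma's adjusted p, taken over all 1536 probes, was under 0.05. The deleted genes checked the labels. The NPL3 probe read −2.19 to −1.59 in the 6 pairs of Dnpl3 over wild type after 30 min at 37 °C and −2.19 to −1.68 in 6 of the 7 pairs at 30 °C. The pair labelled replicate 3 at 30 °C read 1.47 at NPL3, and its correlation with the other 30 °C pairs over all probes ran from −0.66 to −0.45, against 0.41 to 0.71 among the others. The direction of that pair is therefore not settled, and the ratios of the 3 genes in Dnpl3 over wild type at 30 °C are given as labelled, without the pair and with its sign turned. GBP2 read −4.04 to −2.58 and HRB1 −2.26 to −0.43 in the strains that lack them. Both dye orientations of a pair correlated above 0 in 26 of 36 pairs, with a median of 0.30 and a range from −0.36 to 0.84. The number of pairs, not a read depth, limits the precision here.

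**Figure D1:**
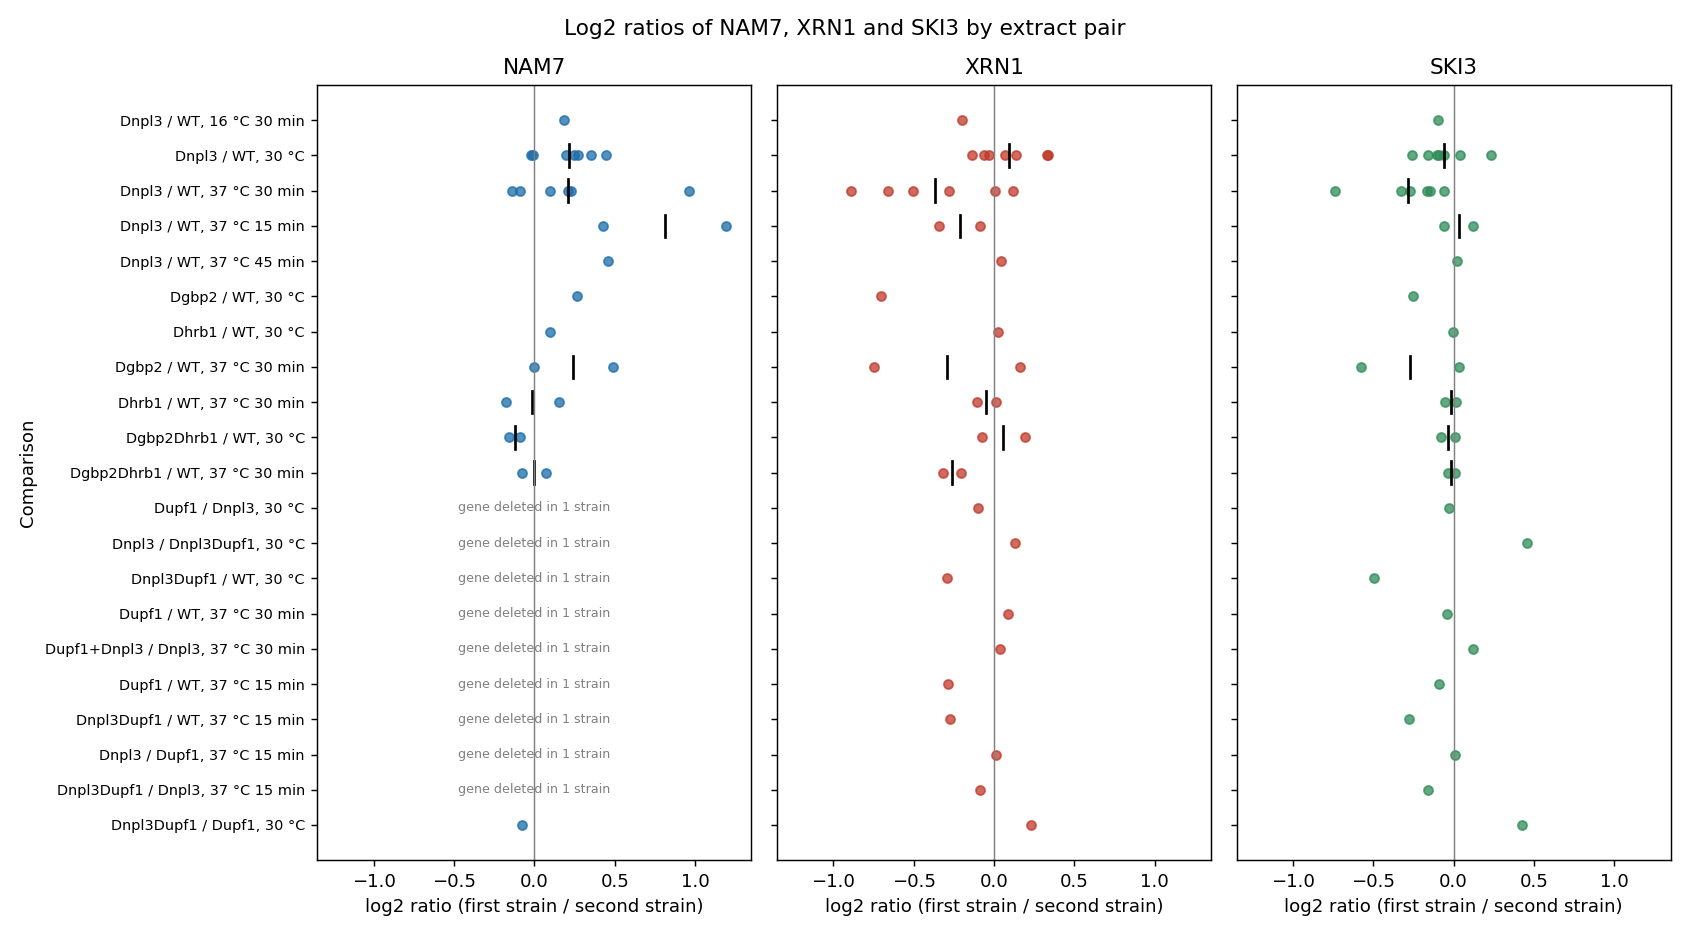
Log2 ratio (horizontal axis) of NAM7, XRN1 and SKI3 in every extract pair, by comparison (rows, first strain over second). Each point is 1 pair and each black line is the mean of a comparison with more than 1 pair. NAM7 is left out where 1 strain lacks the gene. XRN1 and SKI3 lie to the left in Dnpl3 after 30 min at 37 °C and in the Dgbp2 pairs of 1 batch. The SKI3 point of Dgbp2 at 30 °C averages dye orientations of opposite sign.

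In strains that lack Upf1, the NAM7 probe reported the deletion itself, and these values check the labels rather than describe regulation. At 37 °C, Dupf1 over wild type read −4.24 after 15 min and −2.65 after 30 min. Dnpl3Dupf1 over wild type read −3.36 after 15 min at 37 °C and −2.23 at 30 °C. In the pairs of mutants, NAM7 read −4.14 in Dnpl3Dupf1 over Dnpl3, 3.63 in Dnpl3 over Dupf1, −3.95 in Dupf1+Dnpl3 over Dnpl3 and 2.70 in Dnpl3 over Dnpl3Dupf1. NAM7 was thus low in whichever strain lacked it in all 9 such pairs. The smallest difference was in Dupf1 over Dnpl3 at 30 °C, at −1.25, where the orientations read −0.49 with Dupf1 in Cy5 and −2.01 with it in Cy3. Where both strains lacked Upf1, in Dnpl3Dupf1 over Dupf1 at 30 °C, NAM7 read −0.08.

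How far the NAM7 signal lay from 0 in these pairs varied with the dye and with the partner strain. In Dnpl3Dupf1 over wild type after 15 min at 37 °C the orientations read −4.62 and −2.09, and in Dnpl3 over Dupf1 they read 4.46 and 2.81. In the loops that the pairs close, Dnpl3Dupf1 over Dnpl3 after 15 min at 37 °C read −4.14 directly and −4.17 through wild type. Dnpl3 over Dupf1 read 3.63 directly and 5.05 through wild type, and Dnpl3Dupf1 over Dupf1 at 30 °C read −0.08 directly and −1.45 through Dnpl3. These gaps are a measure of the error on how low the probe reads in a strain without the gene.

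The fit over all pairs called NAM7 in every tested comparison of a strain lacking Upf1 with one that keeps it. Dupf1 against Dnpl3 was not tested at either temperature. Against wild type, the fitted log2 ratio of Dupf1 was −3.65 ± 0.28 (SE, adjusted p = 1.1e-09) after 15 min and −2.65 ± 0.36 (adjusted p = 8.4e-05) after 30 min at 37 °C. In these comparisons 1.11% and 0.716% of all probes were called. Dupf1 at 30 °C had no pair with wild type, and its fitted ratio of −1.55 ± 0.30 (adjusted p = 0.00384, 1.5% of probes called) came through other mutants. Without the pair of Dnpl3Dupf1 over Dupf1 it was −1.02 (adjusted p = 0.545), and from the Cy5 orientation alone −1.04 (adjusted p = 0.0931). Dnpl3Dupf1 over wild type was at −2.12 ± 0.24 (adjusted p = 3.89e-07) at 30 °C and −3.46 ± 0.28 (adjusted p = 3.46e-09) after 15 min at 37 °C, where 21.5% and 9.51% of probes were called. Against Dnpl3 it was at −2.32 ± 0.23 (adjusted p = 1.83e-07) at 30 °C and −4.04 ± 0.28 (adjusted p = 1.14e-10) after 15 min at 37 °C, with 14.9% and 2.67% of probes called. Without the pair labelled replicate 3, the 30 °C ratios of Dupf1 and Dnpl3Dupf1 over wild type and of Dnpl3Dupf1 over Dnpl3 were −1.52, −2.10 and −2.33, and with its sign turned −1.54, −2.12 and −2.32, all called. Dupf1+Dnpl3 over Dnpl3 was at −3.95 ± 0.36 (adjusted p = 6.82e-08), with 1.17% of probes called. Between strains that both lack Upf1, Dnpl3Dupf1 over Dupf1, NAM7 was not called at 30 °C (−0.57 ± 0.28, adjusted p = 0.479) or after 15 min at 37 °C (0.18 ± 0.36, adjusted p = 0.981), where 3.12% and 1.3% of probes were. The 30 °C value was −0.08 without the pair of Dupf1 over Dnpl3 and −1.33 (adjusted p = 0.104) without the pair of Dnpl3Dupf1 over Dupf1.

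**Figure D2:**
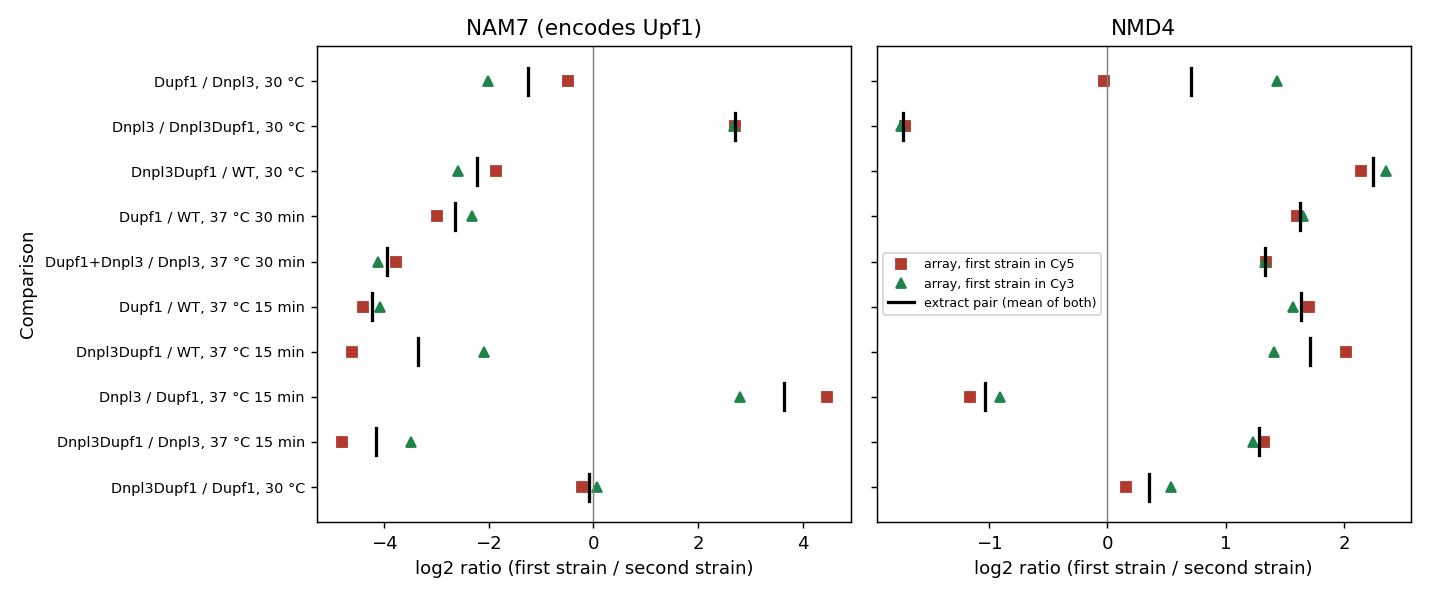
Log2 ratio (horizontal axis) of NAM7 and of NMD4 in the 10 pairs that hold a strain lacking Upf1 (rows, first strain over second). Squares and triangles are the arrays with the first strain in Cy5 and in Cy3, and black lines are the pair means. Where only the first strain lacks Upf1, every NAM7 array is below 0 and every NMD4 array above 0, except 1 NMD4 array at −0.03.

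NMD4, which encodes a protein that associates with Upf1, ran opposite to NAM7 in these pairs. It read 1.64 after 15 min and 1.63 after 30 min in Dupf1 over wild type at 37 °C, and 2.25 at 30 °C and 1.71 after 15 min at 37 °C in Dnpl3Dupf1 over wild type. It read −1.72 in Dnpl3 over Dnpl3Dupf1 and −1.03 in Dnpl3 over Dupf1, and 0.70 in Dupf1 over Dnpl3 at 30 °C. In the 27 pairs in which neither strain lacks Upf1, NMD4 ran from −0.83 to 1.19 with a median of 0.24, so the largest of these overlaps the lower values above. NMD4 rose in Dnpl3Dupf1 over wild type at 30 °C (1.91 ± 0.27, limma adjusted p = 7.59e-06) and after 15 min at 37 °C (1.71 ± 0.31, adjusted p = 0.000416), and in Dupf1 over wild type after 15 min at 37 °C (1.55 ± 0.31, adjusted p = 0.00592). It was not called in Dupf1 at 30 °C (1.23 ± 0.34, adjusted p = 0.0608) or after 30 min at 37 °C (1.63 ± 0.41, adjusted p = 0.0613), or in Dupf1+Dnpl3 over Dnpl3 (1.34 ± 0.41, adjusted p = 0.135).

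In strains that keep the gene, NAM7 passed the test in none of the comparisons. In the 7 pairs of Dnpl3 over wild type at 30 °C it ran from −0.02 to 0.45, with a median of 0.25 and 5 pairs above 0. In the 6 pairs after 30 min at 37 °C it read −0.14, −0.09, 0.21, 0.96, 0.23 and 0.10, so that the pair labelled replicate 4 stood apart from the other 5. The 2 pairs after 15 min at 37 °C read 1.19 and 0.43, the pair after 45 min 0.46 and the pair at 16 °C 0.19. All but 4 of these pairs were above 0. NPL3 read −0.86 in the 15 min pair with the higher NAM7 value and −0.63 in the 45 min pair, nearer to 0 than in any 30 min pair, and −1.64 in the other 15 min pair.

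The fitted NAM7 ratio in Dnpl3 over wild type was 0.21 ± 0.15 (limma adjusted p = 0.298) after 30 min at 37 °C, where 405 probes, 26.4%, were called, and 0.20 ± 0.13 (adjusted p = 0.469) at 30 °C, where 4.3% were. Without the pair labelled replicate 4, the first was 0.06. The 30 °C ratio was 0.23 without the pair labelled replicate 3 and 0.20 with its sign turned. After 15 min at 37 °C the ratio was 0.57 ± 0.21 (adjusted p = 0.104, 4.17% of probes called). It was 0.26 (adjusted p = 0.733) without the first of the 15 min pairs and 0.81 (adjusted p = 0.0406) without the pair of Dnpl3 over Dupf1, in which the deleted gene itself sets the value. The single pairs gave 0.46 ± 0.36 after 45 min at 37 °C and 0.19 ± 0.36 at 16 °C, and in both comparisons 0% of probes were called by limma, with 42 and 22 probes at an unadjusted p under 0.05. The difference between 30 min at 37 °C and 30 °C was 0.01 ± 0.20 (adjusted p = 0.986, 95% interval −0.39 to 0.42), and no probe was called for that difference (0%, with 131 at an unadjusted p under 0.05).

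**Figure D3:**
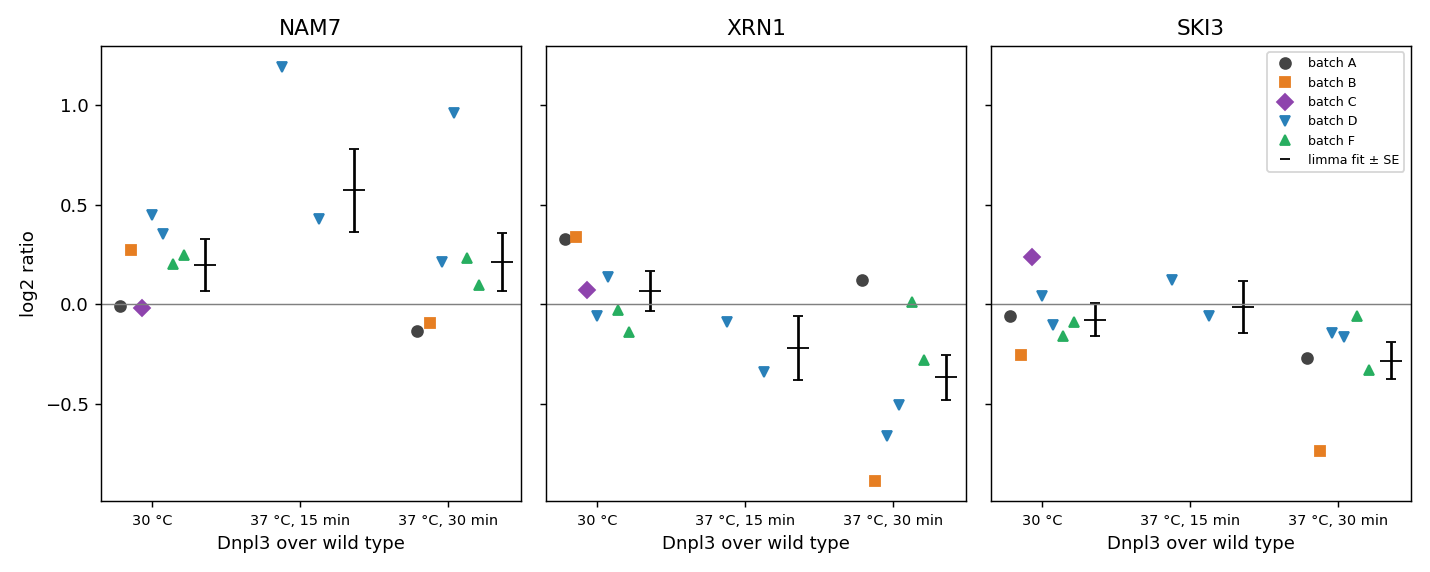
Log2 ratio (vertical axis) of NAM7, XRN1 and SKI3 in Dnpl3 over wild type at 30 °C and after 15 or 30 min at 37 °C. Points are extract pairs, with colour and shape for the batch, and crosses with bars are the limma fit ± SE. After 30 min at 37 °C all 6 SKI3 pairs and 4 of 6 XRN1 pairs are below 0, and 1 NAM7 pair stands at 0.96. The SKI3 pair labelled replicate 3 there averages dye orientations of opposite sign.

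XRN1, the exonuclease acting from the 5′ end, fell in Dnpl3 after 30 min at 37 °C. The 6 pairs read 0.12, −0.89, −0.66, −0.51, 0.01 and −0.28, so that 4 were below 0 and 2 were at or above it. In the pair labelled replicate 5, at 0.01, the Cy5 array had 1 spot at 2.45 while 4 of the other 5 spots were between −0.11 and −0.08. The fitted ratio was −0.37 ± 0.11 (limma adjusted p = 0.0181), a level of 0.775 relative to wild type. With 26.4% of all probes called in this comparison, and with 21.8% of probes showing a larger change in size than XRN1, a change of this size was common among the probes on the array. The call was lost without replicate 2 (−0.26, adjusted p = 0.107), without replicate 3 (−0.31, adjusted p = 0.0632) and without replicate 4 (−0.34, adjusted p = 0.0503). It was also lost with batch as a fixed block (−0.35, adjusted p = 0.0939) and in the 6 pairs fitted alone (adjusted p = 0.146).

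At 30 °C, XRN1 read 0.33, 0.34, 0.07, −0.06, 0.14, −0.03 and −0.14 in the 7 pairs. The values lay on both sides of 0 and overlapped those after 30 min at 37 °C. The fitted ratio was 0.06 ± 0.10 (adjusted p = 0.809), and it was 0.06 without replicate 3 and 0.05 with its sign turned. The temperatures differed by −0.43 ± 0.15 (p = 0.00807), which did not pass over all probes (adjusted p = 0.376). The difference was −0.43 without replicate 3 and −0.41 with its sign turned. Within the batches that held both temperatures, the difference of 37 °C minus 30 °C was −0.21, −1.22, −0.62 and −0.05, below 0 in all 4. The 2 pairs after 15 min at 37 °C read −0.09 and −0.34 (fitted −0.22 ± 0.16, adjusted p = 0.424), the pair after 45 min 0.04 and the pair at 16 °C −0.20. The 15 min pair at −0.09 averaged orientations of −0.325 and 0.151, and the 45 min value averaged −0.84 and 0.92. The direction of XRN1 was thus not determined in either.

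SKI3, the scaffold of the Ski complex, also fell in Dnpl3 after 30 min at 37 °C. The pairs read −0.27, −0.74, −0.15, −0.17, −0.06 and −0.33, below 0 in 6 of 6. Replicate 3, at −0.15, averaged −0.505 with Dnpl3 in Cy5 and 0.213 with it in Cy3, so its direction was not determined. Replicate 6, at −0.33, had the Cy5 array alone, the orientation in which SKI3 mostly read lower. The fitted ratio was −0.28 ± 0.09 (limma adjusted p = 0.0247), a level of 0.821 relative to wild type, and 32% of probes changed by more in size. Without replicate 2, the lowest pair, the ratio was −0.19 (adjusted p = 0.145), and without replicate 6 it was −0.28 (adjusted p = 0.0522). From the Cy3 orientation alone it was −0.14 (adjusted p = 0.549). The call was also lost with batch as a fixed block (−0.24, adjusted p = 0.0956) and in the 6 pairs fitted alone (adjusted p = 0.155).

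At 30 °C, SKI3 read −0.06, −0.26, 0.23, 0.04, −0.11, −0.16 and −0.09. The highest value was that of the pair labelled replicate 3, and 5 of 7 were below 0. The fitted ratio was −0.08 ± 0.08 (adjusted p = 0.696), −0.12 without replicate 3 and −0.14 with its sign turned. The difference between the temperatures was −0.21 ± 0.12 (adjusted p = 0.649), −0.16 without replicate 3 and −0.14 with its sign turned, and within batches it was −0.21, −0.48, −0.12 and −0.07. After 15 min at 37 °C the pairs read 0.12 and −0.06 (fitted −0.01 ± 0.13, adjusted p = 0.967), after 45 min 0.02 and at 16 °C −0.10. The 15 min values of SKI3 averaged orientations of −0.153 and 0.397 and of −0.245 and 0.13. The 45 min value averaged −0.47 and 0.51, and the 16 °C value −0.26 and 0.068. The direction of SKI3 was thus not determined in these pairs. Whether SKI3 differs between 15 and 30 min at 37 °C was not tested.

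XRN1 and SKI3 were not called in any strain lacking Upf1. XRN1 read −0.29 after 15 min and 0.09 after 30 min in Dupf1 over wild type at 37 °C, and −0.29 at 30 °C and −0.28 after 15 min at 37 °C in Dnpl3Dupf1 over wild type. In the pairs of mutants it read from −0.10 to 0.23. SKI3 read −0.09 after 15 min and −0.04 after 30 min in Dupf1 over wild type at 37 °C. In the pairs that hold Dnpl3Dupf1 at 30 °C, SKI3 read −0.49 over wild type and 0.46 in Dnpl3 over Dnpl3Dupf1, both lower in the double deletion. In Dnpl3Dupf1 over Dupf1, where both strains lack Upf1, it read 0.43. That value averaged −0.06 with Dnpl3Dupf1 in Cy5 and 0.91 with it in Cy3, where 1 of 6 spots stood at 4.93. After 15 min at 37 °C, SKI3 read −0.28 in Dnpl3Dupf1 over wild type.

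The fitted SKI3 ratio of Dnpl3Dupf1 over wild type at 30 °C was −0.35 ± 0.15 (limma adjusted p = 0.103). In the pair of Dnpl3Dupf1 over Dupf1, which bears on it, SKI3 had 1 of 6 spots on 1 array at 4.93 and the other 5 between −0.04 and 0.31. With the median over spots in place of the mean, the ratio was −0.42 (adjusted p = 0.0429), and without that pair −0.50 (adjusted p = 0.0168). It was −0.23 without the pair of Dnpl3 over Dnpl3Dupf1 (adjusted p = 0.498) and −0.23 without that of Dnpl3Dupf1 over wild type (adjusted p = 0.585). Without the pair labelled replicate 3 it was −0.38 (adjusted p = 0.0588), and with its sign turned −0.39 (adjusted p = 0.0441). The fitted SKI3 ratio of Dupf1 over wild type at 30 °C, which rests on the same pair, was −0.44 ± 0.19 (adjusted p = 0.343), and it was −0.08 without the pair of Dnpl3Dupf1 over Dupf1 and −0.93 without the pair of Dupf1 over Dnpl3, neither called (adjusted p = 0.991 and 0.0577).

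In strains lacking GBP2 or HRB1, which encode the SR-like proteins related to Npl3, none of the 3 genes was called. Calls were rare over all probes too, at 0.846% in Dgbp2 and 0.0651% in Dhrb1 at 30 °C, and at 0.195% and 0.26% in these strains after 30 min at 37 °C. In Dgbp2Dhrb1 they were at 0.195% at 30 °C and 0.391% after 30 min at 37 °C. XRN1 in Dgbp2 read −0.70 at 30 °C, and −0.75 and 0.16 after 30 min at 37 °C. The pair at 30 °C and the first at 37 °C came from batch B, the second from batch D. SKI3 was at −0.25, −0.58 and 0.03 in the same pairs. Its 30 °C value averaged 0.017 with Dgbp2 in Cy5 and −0.517 with it in Cy3. Its batch D value averaged −0.168 and 0.232, so the direction of SKI3 was not determined in either pair. Over all probes, the orientations of the batch D pair correlated at −0.313, against 0.333 and 0.503 in the batch B pairs. NAM7 was at 0.27, 0.49 and −0.004. Its 30 °C value averaged −0.38 with Dgbp2 in Cy5 and 0.92 with it in Cy3, and its batch D value averaged −0.343 and 0.335. The direction of NAM7 was thus not determined in either pair. In each gene the batch B pairs lay farther from 0 than the batch D pair, and the lowest XRN1 and SKI3 values of Dnpl3 after 30 min at 37 °C were also those of batch B. In Dnpl3 at 30 °C, however, the batch B pair gave the highest of the 7 XRN1 values, 0.34, and the lowest SKI3 value, −0.26. The fitted XRN1 ratio in Dgbp2 was −0.70 ± 0.28 at 30 °C (adjusted p = 0.326) and −0.29 ± 0.19 after 30 min at 37 °C.

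In Dhrb1, including the pairs from batch B, XRN1 ran from −0.10 to 0.02 over the 3 pairs. SKI3 ran from −0.05 to 0.02 and NAM7 from −0.18 to 0.15. The dye orientations of these pairs correlated at −0.22, −0.165 and −0.359. HRB1 itself read −0.43 at 30 °C, its weakest reading among the strains that lack it. SKI3 had orientations of opposite sign in all 3 pairs, XRN1 in those of batch B and NAM7 in that of batch D. The direction was thus not determined there, and these values are a weak contrast to Dgbp2 in batch B. In Dgbp2Dhrb1, XRN1 read −0.08 and 0.20 at 30 °C and −0.32 and −0.20 after 30 min at 37 °C (fitted −0.26 ± 0.19 at 37 °C, adjusted p = 0.999). SKI3 ran from −0.08 to 0.01 and NAM7 from −0.16 to 0.07 over the 4 pairs of the double deletion. The orientations of these pairs correlated at −0.278 and 0.514 at 30 °C and at −0.292 and 0.268 at 37 °C. They had opposite signs for SKI3 in all but the first 30 °C pair, and for NAM7 in all but the second. The direction was not determined where the signs differed. No XRN1 or SKI3 reading of the double deletion was as low as those of the Dgbp2 pairs in batch B. Both XRN1 pairs of the double deletion after 30 min at 37 °C were below 0, however. Their fitted ratio of −0.26 was near the −0.29 of Dgbp2, which averages a pair of batch B and a pair of batch D. The double deletion was hybridised in another batch than B, so strain and batch cannot be told apart in that contrast.

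Of 64 RNA decay genes listed by pathway, 46 were on the array with 53 probes. In Dnpl3 over wild type after 30 min at 37 °C, 2 probes rose and 6 fell, XRN1 and SKI3 among them. With batch as a fixed block none of these 8 calls was left, nor any other on the list, while 142 of all 1536 probes were still called, and in the 6 pairs fitted alone the list had 2 calls. In the fit over all pairs, the 8 calls were 15.1% of the probes on the list, under the 26.4% of all probes. Over all 1536 probes, 203 rose and 202 fell in that fit, so the share that fell was no larger on the list. The median was 0.03 for the list and −0.02 for all probes. Counted by probe, decay genes as a list therefore stood out neither by number nor by median. The list had 53 probes for 46 genes and the array 1536 probes for 982 named genes. Genes with several probes thus weigh more in the share over all probes.

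Of the others that fell, 3 encode factors known to act before Xrn1 in decay, and the last coats the poly(A) tail. DHH1 encodes the helicase that represses translation and activates decapping, and its pairs ran from −1.06 to −0.06 (fitted −0.57 ± 0.12, limma adjusted p = 0.00186). PAT1, an activator of decapping that binds the Lsm ring, ran from −1.46 to −0.03 (−0.50 ± 0.14, adjusted p = 0.0139). CDC39, the scaffold of the Ccr4-Not deadenylase, ran from −1.11 to −0.07 (−0.57 ± 0.12, adjusted p = 0.00149). These 3 were below 0 in 6 of 6 pairs. PAB1, which encodes the poly(A)-binding protein, was below 0 in 5 of 6 (−0.47 ± 0.13, adjusted p = 0.0102). The decapping enzyme itself was not called, with DCP1 at 0.04 ± 0.09 and DCP2 at 0.06 ± 0.10, and neither was RAT1, the nuclear relative of XRN1 (−0.11 ± 0.08), nor the catalytic deadenylase CCR4 (−0.10 ± 0.13).

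The 2 probes that rose belong to Lsm proteins, small ring-forming subunits that bind the 3′ ends of RNA in decay and in splicing. LSM5 was above 0 in 5 of 6 pairs (0.41 ± 0.11, adjusted p = 0.00656). One of 3 LSM2 probes was above 0 in 6 of 6 pairs (0.32 ± 0.11, adjusted p = 0.0388), while the others were at 0.08 and 0.06 and were not called. LSM2 carries an intron, and the files used here do not say which part of the transcript each probe reads.

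**Figure D4:**
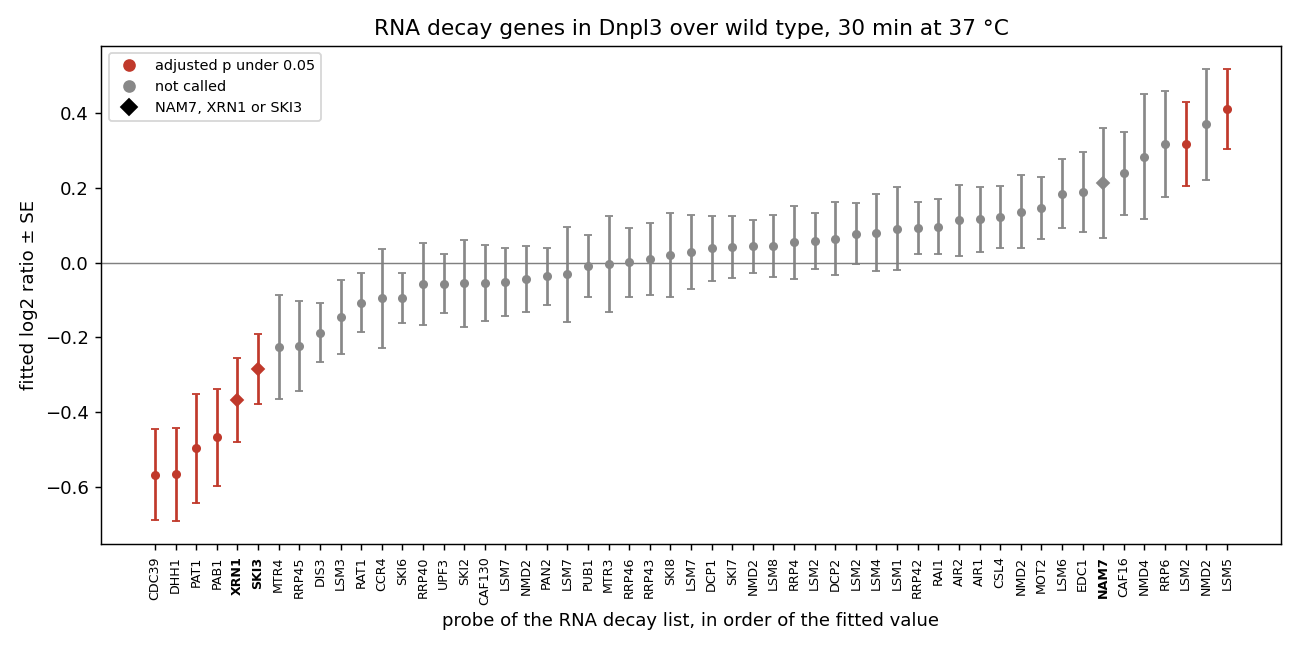
Fitted log2 ratio ± SE (vertical axis) of each probe of the RNA decay list in Dnpl3 over wild type after 30 min at 37 °C, in rising order. Red points were called at an adjusted p under 0.05 and grey ones were not, and diamonds mark NAM7, XRN1 and SKI3. The 6 lowest probes were called, XRN1 and SKI3 being the fifth and sixth, and NAM7 is among the higher ones.

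The partners of Ski3 were not called. The other Ski complex genes SKI2 (−0.06 ± 0.12) and SKI8 (0.02 ± 0.11), and SKI7, whose product joins the complex to the exosome (0.04 ± 0.08), lay near 0 after 30 min at 37 °C. Whether SKI3 differs from each of them was not tested. Among the partners of Upf1, UPF3 was at −0.06 ± 0.08, NMD4 at 0.28 ± 0.17 and the 4 probes of NMD2, an intron-bearing gene, at −0.04, 0.04, 0.14 and 0.37, none called (lowest adjusted p = 0.0681). At 30 °C no probe of the list was called by limma at an adjusted p under 0.05, where 66 of all 1536 probes, 4.3%, were called. Without the pair labelled replicate 3, 246 of all 1536 probes were called and 3 of the 53 on the list: CDC39 at −0.40 (adjusted p = 0.00407), 1 NMD2 probe at −0.26 (adjusted p = 0.0286) and RRP4, an exosome subunit, at 0.28 (adjusted p = 0.0361).

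Over all 37 pairs, XRN1 and SKI3 correlated with each other at a Pearson r of 0.63 and a Spearman rho of 0.52. NAM7, over the 28 pairs in which neither or both strains lack Upf1, was at −0.23 with XRN1 and −0.02 with SKI3. Many pairs share a batch and a strain, so these values describe this set of hybridisations. The genes most like NAM7 were CRM1, which encodes the nuclear export receptor (r = 0.825), SNU114, a GTPase of the spliceosome (r = 0.784), and HPR1, a subunit of the THO complex (r = 0.761). Without the pair labelled replicate 3 at 30 °C the order was SNU114 (r = 0.845), CRM1 (r = 0.83) and GCN20 (r = 0.772). Most like XRN1 were NAB3, which encodes an RNA-binding factor of transcription termination (r = 0.724), the corepressor gene TUP1 (r = 0.685) and GSP1, the gene of yeast Ran (r = 0.685). Most like SKI3 were RPL13B, a ribosomal protein gene (r = 0.775), SEC27, a coatomer subunit gene (r = 0.763), and KAP104, an import receptor gene (r = 0.760). Without that pair SEC27 gave way to NAB3 (r = 0.759), after RPL13B (r = 0.761) and before KAP104 (r = 0.758), while the genes most like XRN1 were the same 3. Each was taken as the highest among 1528 probes.

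The readings of all 3 genes moved with the dye. In the 27 dye-flipped pairs used for NAM7, the ratio was higher with the first strain in Cy3 than in Cy5 in 27 of 27, with a median difference of 0.27. For XRN1 it was higher in 25 of 36 pairs (median 0.21) and for SKI3 in 28 of 36 (median 0.23), against a median of 0.03 over all probes. A larger median difference was seen in 16.1%, 24.8% and 22.3% of probes, so the shift was not rare. The average over both orientations balances it in the 36 flipped pairs. The pair of Dnpl3 over wild type after 30 min at 37 °C labelled replicate 6 had the Cy5 array alone.

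**Figure D5:**
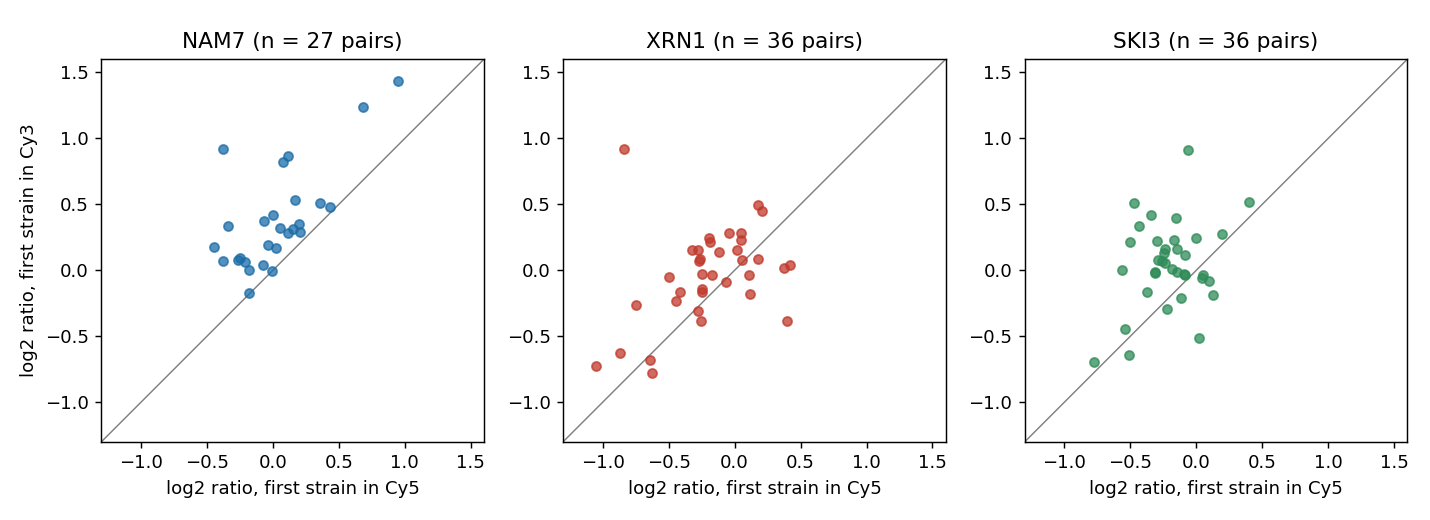
Log2 ratio with the first strain in Cy3 (vertical axis) against that with it in Cy5 (horizontal axis) for each dye-flipped pair, for NAM7, XRN1 and SKI3. The diagonal marks equal values. All 27 NAM7 points and most XRN1 and SKI3 points lie above it.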

How the data were processed

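The deposited table holds 1 log2 ratio per spot for each array, normalized by the authors; the log base is not given in the sources used here and was taken as 2, and the direction, first strain over second in both dyes, was taken from the deleted genes' probes. Array medians lay between −0.03 and 0.033, and 0.18% to 35.38% of spots had no value. Each array had 9216 spots, 6 for each of 1536 probes (79 without a gene name). Spots were averaged to probes and dye flips to extract pairs. The members and gene lists were chosen with earlier results of these data known. One limma 3.58.1 model (R 4.3.3) over 37 pairs of deletion strains fitted 17 strain coefficients with 20 residual degrees of freedom, with Benjamini-Hochberg adjustment over probes having a value in at least 50% of pairs. It was tested on simulated data. From the list, decay genes called in Dnpl3 at 37 °C (30 min) or 30 °C, and partners of the members, were named; NMD4, DCP1, DCP2, RAT1, CCR4 and the 30 °C genes found without replicate 3 were added after values were seen. Likeness was the 3 highest Pearson correlations. Batches A to F are the number prefixes of the array titles. Sequences were not used here, and 2 prp2-1 arrays stayed outside the model. Alternatives covered pairs left out, batch, dye, centring, spots, filter and fit.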

Additional observations from a re-analysis of the deposited data

Results flagged for a closer look

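NAM7 in the pair of Dnpl3 over wild type after 30 min at 37 °C labelled replicate 4 read 0.963, far from the other 5 pairs, which lay between −0.14 and 0.23. Its gap to the nearest pair was 0.666 of the range of the group, above Dixon's critical value for a group of 6. Chance alone marks about 1 in 20 groups in this way, and 6 were examined. Without this pair the fitted ratio was 0.06 in place of 0.21, with neither called (adjusted p = 0.788 and 0.298).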

How the results depend on the processing

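XRN1 in Dnpl3 after 30 min at 37 °C (−0.37) lost its call with batch as a fixed block (−0.35, adjusted p = 0.0939), from the Cy3 arrays alone (−0.35, adjusted p = 0.0719), with arrays scaled to 1 spread (−0.26, adjusted p = 0.07), in its own pairs alone (−0.37, adjusted p = 0.146) and in 3 of 7 fits without 1 pair (range −0.465 to −0.264). SKI3 (−0.28) lost it with the batch block (−0.24, adjusted p = 0.0956), from Cy3 alone (−0.14), in its own pairs (−0.28, adjusted p = 0.155) and in 2 of 7 such fits (range −0.33 to −0.194). At 30 °C, XRN1 was −0.005 from Cy5 alone and SKI3 0.006 from Cy3 alone. The NAM7 difference between temperatures (0.01) was −0.04 with the batch block, −0.066 from Cy5 alone, −0.057 with scaled arrays, −0.002 in its own pairs, with 1 coefficient for each comparison or without the strains lacking Upf1 (this last chosen after seeing the data), and −0.136 to 0.084 without single pairs. NAM7 in Dnpl3Dupf1 over Dupf1 after 15 min at 37 °C (0.18) was −0.29 from Cy5 alone and −0.521 to 0.889 without single pairs. The decay list's 8 calls after 30 min at 37 °C became 0 with the batch block, 3 from Cy3 alone, 2 in its own pairs and 5 to 10 without single pairs. Its 0 calls at 30 °C became 3 with the sign of replicate 3 turned, 2 from either dye alone and 0 to 3 without single pairs. Over all probes, the 405 calls after 30 min at 37 °C became 142 with the batch block, 156 in its own pairs, 173 over gene means and 268 without replicate 2. The 66 calls at 30 °C ranged from 1 to 323. The other NAM7, XRN1 and SKI3 values in Dnpl3 over wild type at 30 °C and after 30 min at 37 °C kept direction and call in the alternatives run; the causes were not tested. No paired analysis was possible because replicate numbers follow the order of deposit; batch, used as the block above, is the only label that groups share. Spots without a value and dye shifts limit small changes.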

Other observations

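On the arrays of prp2-1, a temperature-sensitive splicing mutant, set against either prp5-1 or prp8-1 after 30 min at 37 °C, NAM7 read −0.18 against prp5-1 and −0.11 against prp8-1. XRN1 read −0.37 and −0.15 and SKI3 −0.07 and −0.26 in the same order. Each comparison was 1 array with no replicate, outside those reported above.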
